A study of Mus musculus with 21 samples.

Results

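The genes described here are 10 regulators of the meiotic divisions, the A-type cyclins *Ccna1* and *Ccna2*, the B-type cyclins *Ccnb1* and *Ccnb2*, the cyclin-dependent kinases *Cdk1* and *Cdk2*, the polo-like kinase *Plk1*, the aurora kinases *Aurkb* and *Aurkc*, and the phosphatase *Cdc25c*. They were chosen by name, and all 10 were found among the 24456 genes counted in each of 21 mouse testis libraries. The study asked how ATAD2, a bromodomain protein with an ATPase domain, controls histone chaperones in male germ cells. It used RNA of wild-type round spermatids to group genes by expression. This series holds RNA of 4 purified fractions of wild-type and *H2al2* KO testes. There were 3 libraries per genotype for pachytene spermatocytes, for round spermatids and for condensing spermatids. For spermatozoa there were 2 libraries of wild type and 1 of *H2al2* KO. *H2al2* encodes H2A.L.2, a testis-specific histone H2A variant that works with transition proteins in late spermatids, when histones give way to protamines. The labels give the genotypes as H2al2 WT and H2al2 KO and state no strain, age, allele design or promoter. The study's text calls the replicates of wild-type round spermatids biological, though the counts of replicates 2 and 3 of that group were nearly alike. A checklist published with the study calls its replicates biological in general, without naming the other groups. For those groups nothing says whether replicates came from separate animals. The p-values therefore measure only the spread between these libraries, which may be technical.

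A cell enters division when a cyclin binds a cyclin-dependent kinase and inhibitory phosphates are taken off the kinase. Cyclins give the kinase its activity and timing, CDC25 phosphatases remove the inhibitory phosphates, and PLK1 feeds this switch and drives spindle assembly. Aurora B and its germ-cell relative aurora C sit in the chromosomal passenger complex and correct faulty attachments of chromosomes to the spindle. In the mouse testis, cells spend days in the pachytene stage of the first meiotic prophase, pass quickly through both meiotic divisions and become round spermatids, which do not divide again. *Ccna1* is the germ-cell A cyclin, required in male mice for entry into the first division, while *Ccna2* is used by most dividing cells. CDK2 is needed earlier, in prophase, where it sits at telomeres and at sites of recombination, and mice without it are sterile.

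Counts on genes ranged from 2772995 to 8201682 per library, and 34.6% to 57.7% of reads in the tables fell on no gene. Levels are given in CPM, the counts of a gene relative to all counts on genes in its library, scaled with edgeR's TMM factors over all 21 libraries. The limit that a count of 0 allows, 3 counts, corresponded to 0.366 to 1.08 CPM, and this limit covers counting error only. *H2afb1*, the symbol under which the files list the H2A.L.2 gene, did not overlap between genotypes in any fraction, with 20.7 to 25.4 CPM in KO and 201 to 211 CPM in wild-type round spermatids, for example. Each fraction also held RNA of genes listed as markers of other cells, which its own cells may express as well. The 8 pachytene spermatocyte markers summed to 3881 to 4037 CPM in wild-type pachytene spermatocytes, 1720.1 to 1842 CPM in round and 1328 to 1817 CPM in condensing spermatids. Of this, *Hspa2* alone gave 1943 to 2421, 1361 to 1520 and 729 to 1085 CPM, so the sum does not measure a share of cells. The 6 round spermatid markers summed to 219.5 to 349, 1103 to 1312 and 649 to 673 CPM in the same groups, and the 6 elongating spermatid markers to 1687 to 4382, 21153 to 23584 and 21737 to 32187 CPM. All 6 Sertoli and all 5 Leydig markers had counts in each of these groups. In wild-type condensing spermatids the Sertoli markers summed to 290.5 to 384 CPM, against 24.6 to 35.9 CPM in round spermatids, and the Leydig markers to 136 to 209 against 10.5 to 14.4 CPM. In wild-type pachytene spermatocytes the Sertoli markers summed to 25.1 to 31.4 CPM and the Leydig markers to 73.9 to 153.5 CPM. The 6 spermatogonial markers summed to 34.7 to 45.5, 37.4 to 38.1 and 56.9 to 62.9 CPM in pachytene spermatocytes, round and condensing spermatids. The 6 markers of proliferating cells summed to 456 to 678, 419.6 to 422 and 344 to 388 CPM. What these other cells added to the levels below was not tested. In such bulk samples, fewer cells of a type and less RNA per cell cannot be told apart.

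The 10 genes did not move together. From pachytene spermatocytes to round spermatids in wild type, the 4 cyclins, *Plk1* and *Cdc25c* rose, while *Cdk1*, *Cdk2*, *Aurkb* and *Aurkc* fell. Differences were tested with edgeR's quasi-likelihood test on the counts of the 3 wild-type stages, with Benjamini-Hochberg adjustment over all 14011 genes tested and a threshold of 0.05. All 10 genes were called, 6 higher and 4 lower, where 70.3% of all genes tested were called, 34.4% higher and 35.9% lower. The wild-type libraries of both stages did not overlap for any of the 10, as for 73.2% of all genes tested. A change past 2-fold, tested with edgeR's glmTreat, was called for 3 of the 10, *Ccnb1*, *Cdk2* and *Cdc25c*, against 34.0% of all genes.

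From round to condensing spermatids most of these differences turned around. The 4 cyclins, *Plk1*, *Cdc25c* and *Aurkc* fell, and *Cdk1* and *Cdk2* rose, so that 9 of the 10 genes were called, 2 higher and 7 lower. Over all 14011 genes tested, 7009 were called, 28.3% higher and 21.8% lower. *Aurkb* was not called (log2 fold change 0.44, adjusted p = 0.0627). The libraries did not overlap for any of the 10 genes, as for 61.7% of genes, and *Cdk2* alone of the 10 was called past 2-fold, against 8.48% of genes. The median log2 fold change of the 10 genes was 0.66 at the first step and −0.71 at the second, where the medians of all genes were −0.02 and 0.04. Both steps use the same round spermatid libraries, with opposite sign, so their changes are not independent. The share of all genes that turned around was not counted.

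**Figure D1:**
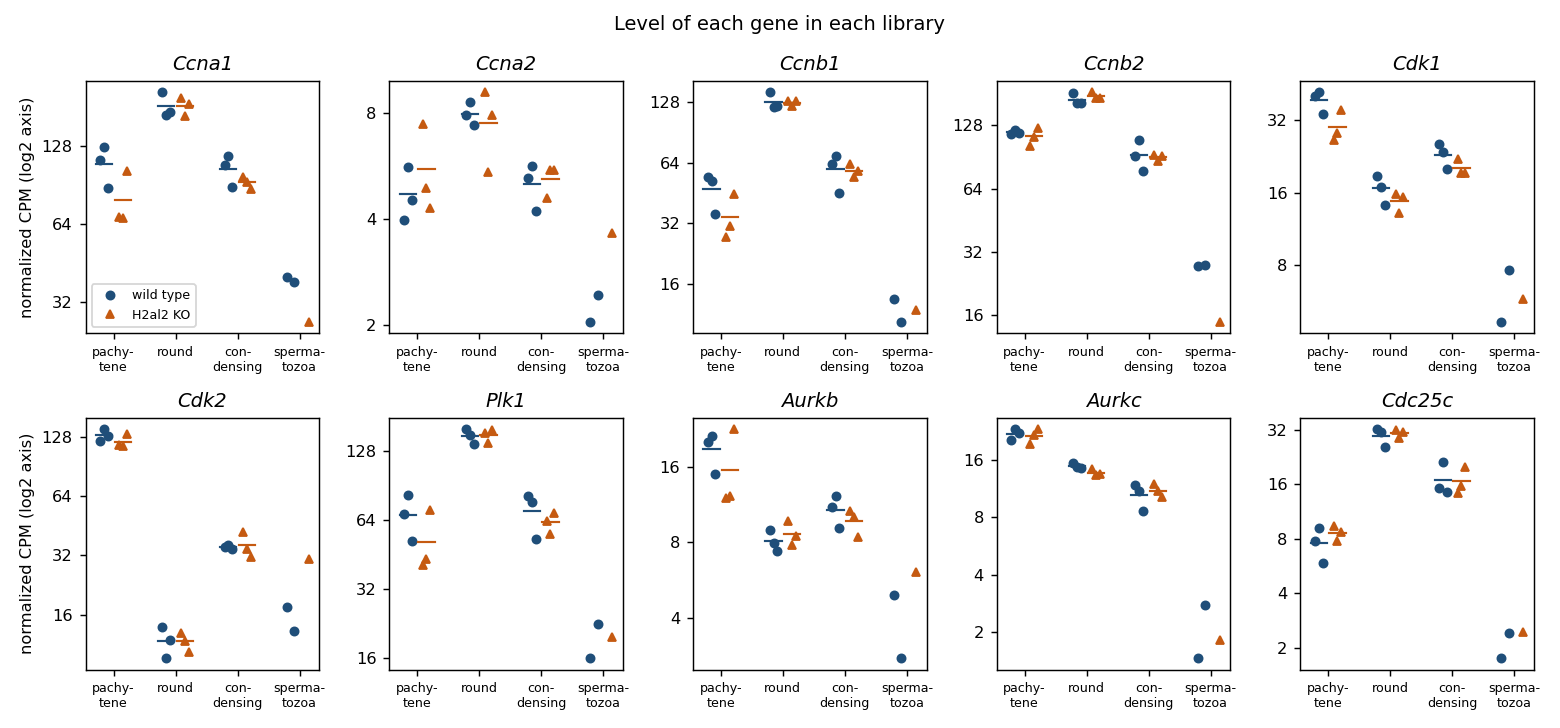
Level of the 10 genes in each of the 21 libraries, as normalized CPM on a log2 axis, by fraction. Circles are wild-type and triangles *H2al2* KO libraries, and bars mark means of 3 libraries; *Cdk2* is lowest in round spermatids among the 3 testis stages, at 9.60 to 13.8 CPM, while *Ccnb1*, *Plk1* and *Cdc25c* are highest there.

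The bases before the start of these genes are shown for genes that rose and genes that fell at the first step. Each stretch is the 120 bases just before the more upstream of the RefSeq and GENCODE starts of the gene, 5′ to 3′ on the gene's own strand. For *Ccnb2*, *Plk1* and *Cdk2* that is the RefSeq start, so a few bases lie between the stretch and the GENCODE position given below. The stretches were taken from RefSeq promoter sequence of GRCm38.p6, which is the mm10 assembly. Capitals mark matches, on either strand, to CCAAT, bound by NF-Y, to TTTGAA, the cell cycle homology region of many division genes, to AACTG, the core bound by MYB proteins, and to TGACG, a half-site of CREB and CREM. None of the matches overlap each other. *Ccnb1* (chr13:100786571-100786690, minus strand), *Ccnb2* (chr9:70421555-70421674, minus strand) and *Plk1* (chr7:122159315-122159434, plus strand) were among those that rose. *Cdk1* (chr10:69352939-69353058, minus strand), *Cdk2* (chr10:128705052-128705171, minus strand) and *Aurkc* (chr7:6995180-6995299, plus strand) were among those that fell.
Ccnb1: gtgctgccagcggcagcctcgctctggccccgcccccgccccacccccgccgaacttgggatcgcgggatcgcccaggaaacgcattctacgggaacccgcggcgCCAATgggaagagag
Ccnb2: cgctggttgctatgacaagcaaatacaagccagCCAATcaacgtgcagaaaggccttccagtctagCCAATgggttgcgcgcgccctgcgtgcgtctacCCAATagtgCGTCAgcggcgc
Plk1: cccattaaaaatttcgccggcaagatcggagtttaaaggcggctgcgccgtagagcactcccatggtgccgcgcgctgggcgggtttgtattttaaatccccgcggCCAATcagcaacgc
Cdk1: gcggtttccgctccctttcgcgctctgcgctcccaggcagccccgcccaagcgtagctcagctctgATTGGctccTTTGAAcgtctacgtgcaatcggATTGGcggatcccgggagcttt
Cdk2: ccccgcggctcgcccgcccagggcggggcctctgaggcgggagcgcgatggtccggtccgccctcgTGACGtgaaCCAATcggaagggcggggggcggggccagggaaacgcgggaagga
Aurkc: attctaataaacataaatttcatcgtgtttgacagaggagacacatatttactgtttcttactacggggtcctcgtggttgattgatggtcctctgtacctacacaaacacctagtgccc

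CCAAT lay in 5 of these 6 stretches, 3 times in *Ccnb2* and 2 times in *Cdk1*, and was found in 21.3% of 32844 promoter windows of the same length in the RefSeq table. It stood before *Ccnb1*, *Ccnb2* and *Plk1*, which rose, and before *Cdk1* and *Cdk2*, which fell. TTTGAA stood before *Cdk1* only, 40 to 45 bases upstream, against 7.12% of windows, and TGACG before *Ccnb2* and *Cdk2*, against 11.7% of windows. AACTG, held by 19.8% of windows, was in none of the 6. *Aurkc* had no match to any of the 4. The sequence before *Plk1* also lies partly in an exon of *Gm15489*, a gene annotated on the other strand. A match describes letters and is not a measured site.

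Gene positions are those of GENCODE on mm10. *Ccna1* (chr3:55045469-55055501), which encodes the germ-cell A cyclin, was at 113, 128 and 88.6 CPM in the 3 wild-type pachytene libraries, 207, 169.5 and 174 CPM in round spermatids and 108, 117 and 89.1 CPM in condensing spermatids. The round spermatid libraries were the highest and the other stages overlapped each other. It rose 1.71-fold at the first step (log2 fold change 0.77, SE 0.15, adjusted p = 4.89e-04) and fell 1.72-fold at the second (log2 fold change −0.78, SE 0.15, adjusted p = 0.0011). *Ccna2* (chr3:36564865-36572150), the A cyclin of most dividing cells, was at 3.97, 5.62 and 4.55 CPM in pachytene spermatocytes, 7.92, 8.62 and 7.39 CPM in round spermatids and 5.23, 5.67 and 4.22 CPM in condensing spermatids. These levels rest on few reads, 33, 47 and 31 in pachytene spermatocytes. It rose 1.73-fold (log2 fold change 0.79, SE 0.20, adjusted p = 0.0031) and fell 1.55-fold (log2 fold change −0.63, SE 0.20, adjusted p = 0.0202). The fall of *Ccna2* was lost without wild-type round replicate 2 (log2 fold change −0.58, adjusted p = 0.0684) and without wild-type condensing replicate 3 (−0.53, adjusted p = 0.0662). Over its alternatives to the same test the adjusted p ran from 0.0133 to 0.0684.

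*Ccnb1* (chr13:100778650-100786570), the B cyclin that is the main partner of CDK1, was at 54.03, 51.9 and 35.6 CPM in wild-type pachytene libraries, 143, 122 and 122 CPM in round spermatids and 63.4, 69.2 and 45.2 CPM in condensing spermatids. It rose 2.79-fold at the first step (log2 fold change 1.48, SE 0.18, adjusted p = 6.96e-06) and fell 2.14-fold at the second (log2 fold change −1.09, SE 0.18, adjusted p = 2.94e-04). The annotation also holds a pseudogene of *Ccnb1*, and reads that matched more than 1 place were not counted, so part of the reads of *Ccnb1* may be missing in every library. *Ccnb2* (chr9:70407692-70421547), the second B cyclin, was at 117, 122 and 118 CPM in pachytene spermatocytes, 183, 163 and 163 CPM in round spermatids and 91.5, 109 and 77.3 CPM in condensing spermatids. Its rise was smaller, 1.46-fold (log2 fold change 0.55, SE 0.13, adjusted p = 0.002001), and its fall was 1.799-fold (log2 fold change −0.85, SE 0.13, adjusted p = 2.18e-04). Condensing spermatids therefore held less *Ccnb2* RNA in every wild-type library than any wild-type pachytene library did, while for *Ccnb1* these stages overlapped.

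*Cdk2* (chr10:128697939-128705031) moved the most of the 10 genes at both steps in wild type. The kinase was at 123, 140.3 and 129.9 CPM in pachytene spermatocytes, 13.8, 9.596 and 11.9 CPM in round spermatids and 35.2, 36.1 and 34.4 CPM in condensing spermatids. It fell 10.9-fold (log2 fold change −3.44, SE 0.14, adjusted p = 3.94e-09) and then rose 3.04-fold (log2 fold change 1.60, SE 0.14, adjusted p = 3.47e-06). *Cdk1* (chr10:69335146-69352938), the kinase that drives the divisions, was at 40.2, 41.7 and 34.02 CPM in pachytene spermatocytes, 18.8, 16.97 and 14.2 CPM in round spermatids and 25.4, 23.7 and 20.03 CPM in condensing spermatids. It fell 2.27-fold (log2 fold change −1.18, SE 0.14, adjusted p = 8.43e-06) and rose 1.41-fold (log2 fold change 0.49, SE 0.15, adjusted p = 0.0155). *Piwil1*, a spermatocyte marker of the list, took the same course, 1105 to 1226, 56.3 to 77.4 and 169 to 219 CPM in wild type, and so did *Sycp3*, at 85.3 to 175, 38.9 to 49.4 and 73.98 to 106 CPM. *Hspa2*, the most abundant of the list, was lower at each step, at 1943 to 2421, 1361 to 1520 and 729 to 1085 CPM. Of the 8 spermatocyte markers, 3 were called higher and 1 lower in condensing than in round spermatids. In KO 5 were called higher and 3 lower. All 5 Sertoli markers that passed the filter and all 5 Leydig markers were higher. The part of these cells in the rise of *Cdk1* and *Cdk2* was not tested. The rise of *Cdk1* was lost without wild-type round replicate 3 (log2 fold change 0.38, adjusted p = 0.083), without wild-type condensing replicate 1 (0.41, adjusted p = 0.0711) and without wild-type condensing replicate 2 (0.44, adjusted p = 0.0635). It was also lost when wild-type round replicates 2 and 3, whose counts were nearly alike, were summed (0.44, adjusted p = 0.0501), with adjusted p from 0.00679 to 0.083 over its alternatives. The same step was called in the *H2al2* KO libraries, which the wild-type fit did not use (log2 fold change 0.47, adjusted p = 0.0108), but was lost there without KO round replicate 2 (0.39, adjusted p = 0.0556) or KO condensing replicate 1 (0.39, adjusted p = 0.0569).

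*Plk1* (chr7:122159439-122169873) was at 67.6, 82.3 and 51.6 CPM in wild-type pachytene spermatocytes, 159, 150.1 and 137 CPM in round spermatids and 81.2, 76.5 and 52.7 CPM in condensing spermatids. It rose 2.26-fold (log2 fold change 1.18, SE 0.18, adjusted p = 6.17e-05) and fell 2.08-fold (log2 fold change −1.06, SE 0.18, adjusted p = 4.40e-04). *Cdc25c* (chr18:34732993-34751533), whose phosphatase releases CDK1 from inhibition, was at 7.82, 9.202 and 5.87 CPM in pachytene spermatocytes, 32.4, 31.2 and 25.95 CPM in round spermatids and 15.2, 21.2 and 14.6 CPM in condensing spermatids. Its rise of 3.97-fold (log2 fold change 1.99, SE 0.19, adjusted p = 9.20e-07) was the largest of the 6 genes that rose. It fell 1.72-fold (log2 fold change −0.78, SE 0.18, adjusted p = 0.00292), and condensing spermatids still held more of it in every library than pachytene spermatocytes.

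*Aurkb* (chr11:69045647-69051664) and *Aurkc* (chr7:6995300-7003091) were both highest in pachytene spermatocytes among the 3 testis stages. *Aurkb* was at 20.1, 21.2 and 14.96 CPM in wild-type pachytene spermatocytes, 8.998, 7.93 and 7.39 CPM in round spermatids and 11.1, 12.2 and 9.14 CPM in condensing spermatids. It fell 2.26-fold at the first step (log2 fold change −1.18, SE 0.17, adjusted p = 4.66e-05). At the second step it was called without wild-type condensing replicate 3 (log2 fold change 0.53, adjusted p = 0.0442), with library size only (0.51, adjusted p = 0.0368), with a minimum count of 50 (0.51, adjusted p = 0.0298) and with the replicate number as a block (0.43, adjusted p = 0.0394), with adjusted p from 0.0298 to 0.253 over its alternatives. *Aurkc* was at 20.3, 23.1 and 21.99 CPM in pachytene spermatocytes, 15.3, 14.6 and 14.5 CPM in round spermatids and 11.8, 10.9 and 8.61 CPM in condensing spermatids. It fell at both steps, 1.44-fold (log2 fold change −0.53, SE 0.14, adjusted p = 0.00403) and 1.39-fold (log2 fold change −0.47, SE 0.15, adjusted p = 0.0183). The second fall was lost without wild-type condensing replicate 3 (log2 fold change −0.37, adjusted p = 0.0628), the lowest library of its group, with adjusted p from 0.00838 to 0.0628 over its alternatives. *Aurkc* alone of the 10 genes was called lower at both steps.

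The stage steps in the 9 *H2al2* KO libraries, which share no sample with the wild-type fit, gave 9 of the 10 genes from pachytene to round, 5 higher and 4 lower. Of 13877 genes tested, 74.9% were called, 36.5% higher and 38.4% lower. The libraries did not overlap for 9 of the 10 genes and for 74.1% of all genes, and 4 of the 10 were called past 2-fold, *Ccnb1*, *Cdk2*, *Plk1* and *Cdc25c*, against 36.6%. *Ccna2* was the gene not called, at 7.45, 4.92 and 4.304 CPM in KO pachytene and 9.18, 5.44 and 7.92 CPM in KO round libraries (log2 fold change 0.43, adjusted p = 0.114). It was called without KO pachytene replicate 1 (0.68, adjusted p = 0.0223) or KO round replicate 2 (0.61, adjusted p = 0.0328), with adjusted p up to 0.372 over its alternatives. From round to condensing spermatids 7 of the 10 were called in KO, 2 higher and 5 lower, against 54.2% of all genes, 29.7% higher and 24.5% lower. The libraries did not overlap for 8 of the 10 genes and for 61.3% of all genes, and *Cdk2* alone was called past 2-fold, against 8.65%. The genes not called were *Ccna2* (log2 fold change −0.51, adjusted p = 0.0793), *Aurkb* (0.18, adjusted p = 0.524) and *Aurkc* (−0.30, adjusted p = 0.101). *Ccna2* was called without KO round replicate 2 (−0.70, adjusted p = 0.0245), and its adjusted p reached 0.27 over the alternatives. Every gene had the same sign in both genotypes at each step. In KO, *Cdk2* fell from 121 ± 9.48 to 11.7 ± 1.29 CPM (SD, n = 3), and *Ccnb1* rose from 34.5 ± 9.11 to 127 ± 3.98 CPM.

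**Figure D2:**
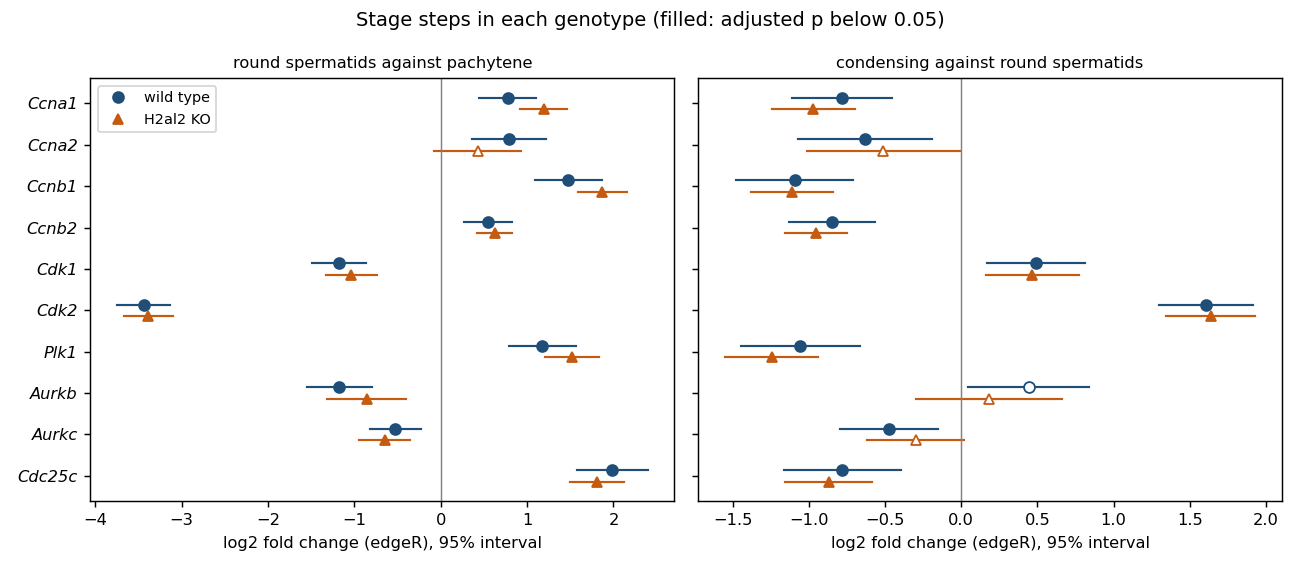
Log2 fold change of the 10 genes from pachytene spermatocytes to round spermatids and from round to condensing spermatids, with 95% intervals, in wild type (circles) and *H2al2* KO (triangles); filled symbols were called by edgeR at an adjusted p below 0.05. *Cdk2* lies at −3.44 and −3.39 on the left, and *Aurkb* has open symbols in both genotypes on the right.

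*H2al2* KO was compared with wild type within each fraction. None of the 10 genes was called in any fraction by edgeR, and none by DESeq2. At an unadjusted p under 0.05 edgeR gave 1 of the 10 in pachytene spermatocytes, *Ccna1*, and 0 in round and in condensing spermatids. Over all genes, 0% of 12236 were called in pachytene spermatocytes, 0.0156% of 12804 in round spermatids and 0.00728% of 13734 in condensing spermatids. An unadjusted p under 0.05 was given by edgeR for 815, 753 and 870 of these genes. For pachytene spermatocytes, where edgeR called 0 genes, DESeq2 called 2. The libraries of both genotypes did not overlap for 0 of the 10 genes in pachytene spermatocytes, 1 in round spermatids and 0 in condensing spermatids, where 11.4%, 9.86% and 12.1% of all genes did not. The gene that did not overlap was *Aurkc*, at 15.3, 14.6 and 14.5 CPM in wild-type and 14.3, 13.4 and 13.4 CPM in KO round spermatids.

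In pachytene spermatocytes, *Ccna1* was at 113, 128 and 88.6 CPM in wild type and 68.02, 67.6 and 103 CPM in KO. KO replicates 1 and 2 lay below all wild-type libraries and KO replicate 3 lay within their range. The log2 fold change was −0.39, with a 95% interval of −0.78 to −0.0045, an unadjusted p of 0.0479 and an adjusted p of 0.656. *Cdk1* was at 26.6, 28.2 and 35.4 CPM in the KO libraries, and its log2 fold change was −0.29, with a 95% interval of −0.59 to 0.01, an unadjusted p of 0.0547 and an adjusted p of 0.656. *Ccnb1* was at 27.5, 31.1 and 44.8 CPM in the KO libraries, and its log2 fold change was −0.38, with a 95% interval of −0.82 to 0.06, an unadjusted p of 0.08 and an adjusted p of 0.656. KO replicate 3 was the highest KO library for each of the 3 genes. Over the alternatives the adjusted p ran from 0.119 to 0.985 for *Ccna1*, from 0.211 to 0.985 for *Cdk1* and from 0.124 to 0.985 for *Ccnb1*. Elongating spermatid RNA also differed among these libraries. Its 6 markers summed to 4382, 4186 and 1687 CPM in wild-type replicates 1, 2 and 3, and wild-type replicate 3 was the lowest wild-type library for *Ccna1*, *Ccnb1* and *Cdk1*. In the KO libraries the markers summed to 2229, 2422 and 2217 CPM, the last in KO replicate 3. Some spermatocyte markers differed among these libraries too. *Sycp1* was at 107, 66.3 and 209 CPM in wild type and 281, 302 and 127 CPM in KO. *Piwil1* differed less, at 1141, 1226 and 1105 CPM in wild type and 1136, 1179 and 1227 CPM in KO. The part of spermatid or spermatocyte RNA in these differences was not tested.

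In round spermatids the 3 smallest p-values belonged to *Cdk1*, *Ccnb2* and *Aurkc*. *Cdk1* had a log2 fold change of −0.16, with a 95% interval of −0.48 to 0.16, an unadjusted p of 0.287 and an adjusted p of 0.987. That of *Ccnb2* was 0.07, with a 95% interval of −0.11 to 0.25, an unadjusted p of 0.432 and an adjusted p of 0.9904, and that of *Aurkc* was −0.10, with a 95% interval of −0.38 to 0.18, an unadjusted p of 0.446 and an adjusted p of 0.991. In condensing spermatids, *Ccna1* was at 108, 117 and 89.1 CPM in wild type and 97.5, 93.03 and 87.7 CPM in KO. Its log2 fold change was −0.19, with a 95% interval of −0.43 to 0.05, an unadjusted p of 0.115 and an adjusted p of 0.852. *Cdk1* had a log2 fold change of −0.20, with a 95% interval of −0.48 to 0.08, an unadjusted p of 0.147 and an adjusted p of 0.865, and *Plk1* of −0.18, with a 95% interval of −0.48 to 0.12, an unadjusted p of 0.214 and an adjusted p of 0.8997. In the round spermatids the 95% intervals of all 10 genes stayed within −0.52 and 0.48 on the log2 scale, and in condensing spermatids within −0.53 and 0.50. In pachytene spermatocytes they ran from −0.82 to 0.92.

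The difference of the KO effect between stages was tested as an interaction on the 18 libraries of the 3 stages. None of the 10 genes was called between round and pachytene or between condensing and round, by edgeR or DESeq2, none had an unadjusted p under 0.05, and 0% and 0% of 14479 genes were called. Over all genes 1050 and 407 had an unadjusted p under 0.05, and DESeq2 called 1 and 0. The smallest p was that of *Ccna1* between round and pachytene, where the KO effect was higher in round spermatids by 0.41 on the log2 scale (95% interval −0.03 to 0.85, unadjusted p = 0.0689, adjusted p = 0.676 by edgeR).

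**Figure D3:**
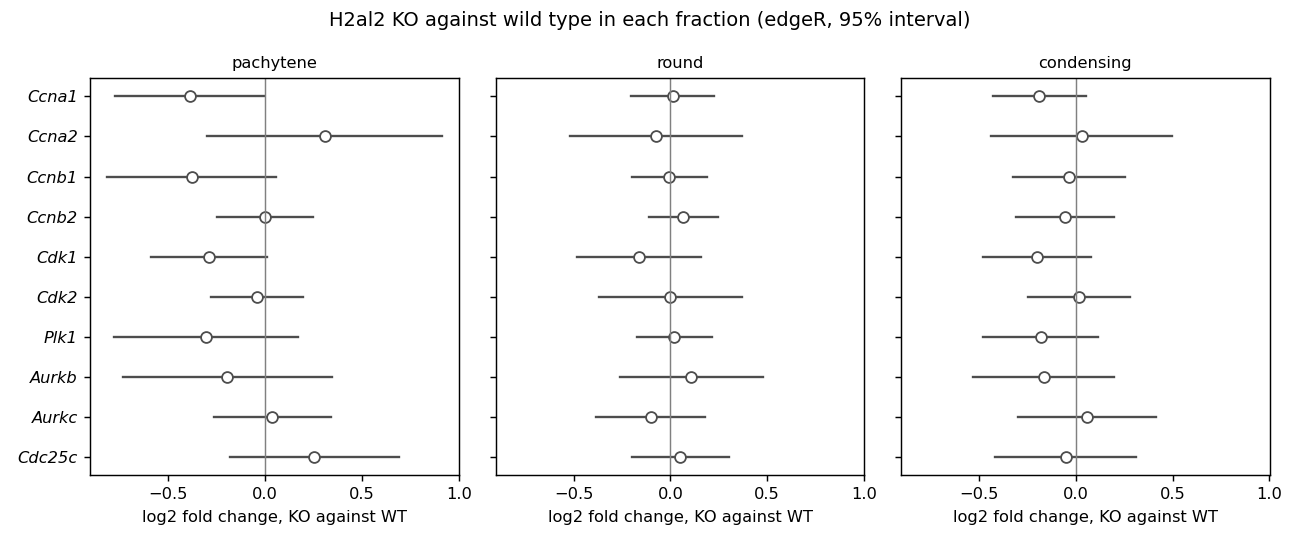
Log2 fold change of *H2al2* KO against wild type for the 10 genes in pachytene spermatocytes, round spermatids and condensing spermatids, with 95% intervals from edgeR. All symbols are open because no gene was called, and the widest interval is that of *Ccna2* in pachytene spermatocytes.

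Related genes can be compared within a library by their ratio, which does not depend on the scaling between libraries. The log2 ratio of counts (with 0.5 added to each) was compared between stages over 6 libraries each, both genotypes together, with a two-sided exact permutation test over the 924 groupings and adjustment over the 8 comparisons made. *Cdk1* to *Cdk2* rose 4.96-fold from pachytene to round (difference 2.31 on the log2 scale, exact p = 0.00216, adjusted p = 0.00346). Its log2 values ran from −2.14 to −1.61 in pachytene and from 0.17 to 0.82 in round libraries. It fell 2.21-fold from round to condensing (difference −1.14 on the log2 scale, exact p = 0.00216, adjusted p = 0.00346). *Ccnb1* to *Ccnb2* rose 2.16-fold (difference 1.11 on the log2 scale, exact p = 0.00216, adjusted p = 0.00346). Its log2 values ran from −1.89 to −1.11 in pachytene and from −0.51 to −0.36 in round libraries. At the second step it fell 1.15-fold (difference −0.21 on the log2 scale, exact p = 0.00216, adjusted p = 0.00346). A p of 0.00216 is the smallest that these 924 groupings can give.

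*Aurkc* to *Aurkb* fell 1.62-fold from round to condensing spermatids (difference −0.70 on the log2 scale, exact p = 0.00216, adjusted p = 0.00346), by 0.92 in wild type alone and by 0.48 in KO alone on the log2 scale. Its rise from pachytene to round was smaller (difference 0.39 on the log2 scale, exact p = 0.0433, adjusted p = 0.0495) and the groups overlapped, and it was lost without any of 8 of the 12 libraries, with adjusted p from 0.0594 to 0.0990. These were wild-type pachytene replicates 1 and 2, KO pachytene replicate 3, all 3 wild-type round replicates and KO round replicates 2 and 3. The rise was 0.64 in wild type and 0.15 in KO on the log2 scale. *Ccna1* to *Ccna2* did not pass the test from pachytene to round (difference 0.39 on the log2 scale, exact p = 0.1797, adjusted p = 0.1797), with a difference of −0.01 in wild type and 0.80 in KO. It fell 1.25-fold from round to condensing (difference −0.32 on the log2 scale, exact p = 0.0238, adjusted p = 0.0317), and this was lost without wild-type round replicate 1 or 3 or KO round replicate 2 or 3, with adjusted p from 0.0548 to 0.0664. The fall was −0.15 on the log2 scale in wild type and −0.49 in KO. Within 1 genotype, 3 libraries against 3 cannot give an exact p below 0.1.

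Levels of different genes were compared per kilobase of annotated exon, over all protein-coding transcripts of a gene. *Cdk1* had the longest sum of the 10, 4533 bases. Where a shorter transcript is expressed, the level per kb is too low. In wild-type pachytene spermatocytes *Ccnb2* led with 77.5 ± 1.79 CPM per kb (SD, n = 3), followed by *Ccna1* with 59.8 ± 10.8 and *Cdk2* with 54.3 ± 3.69, which lay within their spread of each other. *Plk1* had 30.6 ± 6.99, *Ccnb1* 18.95 ± 4.04 and *Aurkc* 14.3 ± 0.903 CPM per kb. *Aurkb* with 9.58 ± 1.695 and *Cdk1* with 8.52 ± 0.898 were not separated by their spread, and *Cdc25c* and *Ccna2* were lowest, with 3.92 ± 0.862 and 1.299 ± 0.2303 CPM per kb. In wild-type round spermatids *Ccnb2* and *Ccna1* led with 111 ± 7.53 and 99.99 ± 11.2 CPM per kb, not separated by their spread, and *Plk1* with 67.5 ± 5.08 and *Ccnb1* with 51.7 ± 4.88 followed. *Cdc25c* took place 5 with 15.3 ± 1.75, above *Aurkc* with 9.72 ± 0.2905. *Cdk2* had dropped to 4.88 ± 0.8798, within the spread of *Aurkb* with 4.15 ± 0.418, and *Cdk1* was at 3.68 ± 0.5102 and *Ccna2* at 2.2 ± 0.1699 CPM per kb. In wild-type condensing spermatids the first 4 places were the same, with *Ccnb2* at 60.5 ± 10.4 and *Ccna1* at 57.2 ± 7.86, and *Cdk2* took place 5 with 14.6 ± 0.334 CPM per kb. *Cdc25c* with 8.75 ± 1.88 and *Aurkc* with 6.86 ± 1.09 were not separated there, nor *Aurkb* with 5.53 ± 0.795 and *Cdk1* with 5.08 ± 0.604.

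The ratio of cyclin RNA to kinase RNA differed between stages, which is given as a description chosen after the levels were seen. The size of such a ratio depends on the exon lengths used. The summed B cyclins were 11.04, 10.9 and 12.1 times the level of *Cdk1* per kb in the 3 wild-type pachytene libraries, 42.6, 41.5 and 49.6 times in round spermatids and 15.2, 18.9 and 15.5 times in condensing spermatids. The KO libraries gave 13.3, 13.8 and 12.7, then 49.4, 55.5 and 48.6, then 17.6, 18.3 and 19.5 times. *Ccna1* was 1.21, 1.195 and 0.896 times the level of *Cdk2* per kb in wild-type pachytene, 19.7, 23.2 and 19.2 times in round and 4.04, 4.28 and 3.399 times in condensing libraries. Within the A cyclins, *Ccna1* was 46.6 ± 8.98 times the level of *Ccna2* per kb in wild-type pachytene and 45.7 ± 6.44 times in round spermatids (SD, n = 3). *Ccnb1* was 0.244 ± 0.0516 times *Ccnb2* in pachytene and 0.467 ± 0.0119 times in round spermatids.

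**Figure D4:**
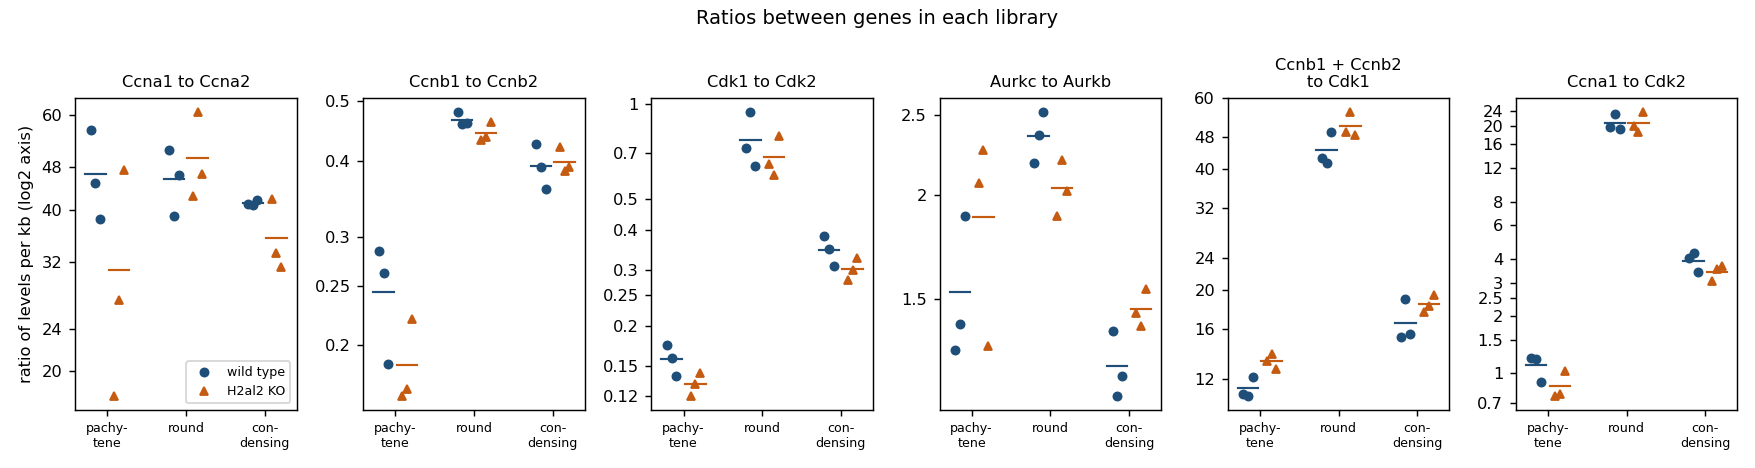
Ratios of levels per kilobase between genes in each library of the 3 testis stages, on log2 axes, with circles for wild type, triangles for *H2al2* KO and bars for means of 3 libraries. The ratios of *Cdk1* to *Cdk2* and of the B cyclins to *Cdk1* peak in round spermatids, and the ratio of *Ccna1* to *Ccna2* overlaps between stages.

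In spermatozoa, which are described without a test, every gene but *Cdk2* was below all of its 18 testis-stage libraries. *Ccna1* was at 39.9 and 38.2 CPM in wild type and 26.8 CPM in the H2al2 KO library, *Ccnb2* at 27.4 and 27.7 CPM in wild type and 14.9 CPM in the H2al2 KO library and *Plk1* at 16.03 and 22.5 CPM in wild type and 19.8 CPM in the H2al2 KO library. *Cdk2* was at 17.5 and 13.2 CPM in wild type and 30.8 CPM in the H2al2 KO library, above the round spermatid range in 2 of the 3 libraries. *Aurkc* was at 1.46 and 2.77 CPM in wild type and 1.83 CPM in the H2al2 KO library, and *Cdc25c* at 1.75 and 2.43 CPM in wild type and 2.44 CPM in the H2al2 KO library, on 6, 7 and 8 counts. These libraries had the lowest counts on genes, and their 4 macrophage markers summed to 207 to 213 CPM in wild type and 940.4 CPM in KO, against at most 21.7 CPM in the testis stages. Their elongating spermatid markers summed to 29505 and 26024 CPM in wild type and 9627 CPM in KO. The markers of proliferating cells summed to 155 and 132 CPM in wild type and 279 CPM in KO. The Sertoli markers summed to 234 and 191 CPM in wild type and 280 CPM in KO. What macrophage RNA or these other differences added to these levels was not tested.

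The 10 genes work with many others, and a list of 66 partners was counted in the same way, 63 of which passed the filter on low counts in wild type. From pachytene to round spermatids 49 were called, 15 higher and 34 lower, with a median log2 fold change of −0.56, where the 10 division genes had 6 higher and 4 lower. Over all genes tested 70.3% were called, 34.4% higher and 35.9% lower, which the counts of the groups below also stand against. Of 19 other cyclins, kinases and inhibitors of the cell cycle, 5 were higher and 12 lower. Of 20 genes of the anaphase-promoting complex and its regulators, the machinery that destroys cyclins, 4 were higher and 9 lower. Of 6 spindle checkpoint genes, which hold back anaphase, 1 was higher and 4 lower. Of 8 genes that set the phosphorylation of CDK1 and its substrates, 6 were tested, and 3 were higher and 3 lower. The chromosomal passenger complex and shugoshins gave 1 higher and 3 lower of 6, and the other polo, aurora and NIMA kinases 1 higher and 3 lower of 6 tested. *Ccnd3*, a D cyclin, rose from 35.6 ± 8.98 to 152 ± 11.04 CPM (log2 fold change 2.12, adjusted p = 1.33e-07). *Cdc25a*, a relative of *Cdc25c*, rose from 57.2 ± 9.26 to 148 ± 3.94 CPM (log2 fold change 1.41, adjusted p = 9.60e-07), and *Anapc10*, a subunit of the anaphase-promoting complex, rose from 15.9 ± 1.999 to 36.4 ± 2.94 CPM (log2 fold change 1.22, adjusted p = 9.66e-06). *Cks2*, a small subunit that binds CDK1 and CDK2, fell from 124 ± 6.18 to 10.3 ± 1.56 CPM (log2 fold change −3.56, adjusted p = 8.65e-09). *Fbxo43*, an inhibitor of the anaphase-promoting complex, fell from 92.8 ± 7.53 to 10.3 ± 0.871 CPM (log2 fold change −3.13, adjusted p = 9.19e-09), and *Ccne2*, an E cyclin that pairs with CDK2, fell from 60.9 ± 16.4 to 8.46 ± 1.28 CPM (log2 fold change −2.81, adjusted p = 1.82e-07).

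From round to condensing spermatids 36 of the 63 partners were called, 21 higher and 15 lower, with a median log2 fold change of 0.01. Over all genes tested 7009 of 14011 were called, 28.3% higher and 21.8% lower. The other cyclins, kinases and inhibitors gave 10 higher and 2 lower, the anaphase-promoting complex 5 higher and 6 lower, the spindle checkpoint 2 higher and 1 lower, the genes of CDK1 phosphorylation 2 and 2, the chromosomal passenger complex and shugoshins 1 higher and 3 lower, and the other polo, aurora and NIMA kinases 1 and 1. *Cdkn1b*, which encodes the CDK inhibitor p27, rose from 1.57 ± 0.537 to 8.23 ± 0.882 CPM (log2 fold change 2.40, adjusted p = 2.03e-05). *Cdkn1a*, which encodes the inhibitor p21, rose from 1.72 ± 0.144 to 5.79 ± 0.836 CPM (log2 fold change 1.76, adjusted p = 1.61e-04), and *Cdk4* rose from 3.79 ± 0.661 to 12.5 ± 3.08 CPM (log2 fold change 1.73, adjusted p = 6.75e-05). All 3 are also expressed by somatic cells, and the Sertoli and Leydig markers were higher in the same fraction, as given above. What somatic RNA added to the levels of these 3 genes was not tested. Among those that fell were *Bora*, which activates PLK1, from 56.97 ± 2.09 to 27.6 ± 3.34 CPM (log2 fold change −1.02, adjusted p = 3.40e-05), *Ccnd3* from 152 ± 11.04 to 79.1 ± 2.58 CPM (log2 fold change −0.91, adjusted p = 3.43e-04) and *Cdc25a* from 148 ± 3.94 to 80.7 ± 9.71 CPM (log2 fold change −0.86, adjusted p = 2.29e-04). Between genotypes none of the 60, 62 and 63 partners tested in pachytene spermatocytes, round and condensing spermatids was called by edgeR. At an unadjusted p under 0.05 there were 7, 1 and 3. Over all genes tested in these fractions there were 815 of 12236, 753 of 12804 and 870 of 13734. DESeq2 called 0, 0 and 0 of the partners.

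**Figure D5:**
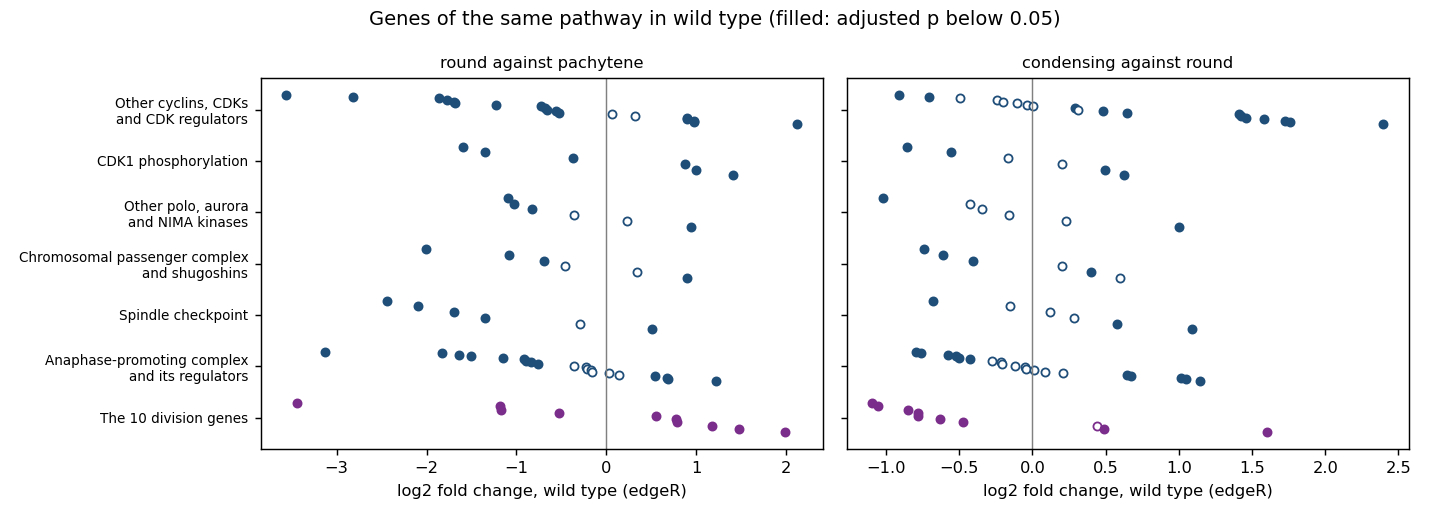
Log2 fold change of the 63 tested partners, by group, and of the 10 division genes in wild type, from pachytene to round and from round to condensing spermatids, with 1 point per gene and filled points called by edgeR at an adjusted p below 0.05. At the first step 34 partners lie below 0 and called, against 15 above.

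The genes whose log2 levels followed a member most closely over the 18 testis-stage libraries were listed as a description, among 10195 genes with a mean of at least 5 CPM. The points share their libraries and fall into 3 stages, and no test was made. For *Ccna1* they were *Dnaic2* (Pearson r 0.98), *Pdk2* (0.98) and *5730559C18Rik* (0.97), of 37 genes with r of at least 0.95. For *Cdk1* they were *AI467606*, *Sdhd* and *Rps3* (each 0.97), of 73 such genes. For *Aurkc* they were *Lrrc48* (0.98), *1700123O20Rik* (0.98) and *Hsf5* (0.98), of 207 such genes.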

How the data were processed

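The authors made stranded libraries from total RNA after removal of ribosomal RNA, and aligned reads to mm10 using STAR 2.7.11b. HTSeq counted reads on exons of the reverse strand, with strict intersection and no multiply aligned reads. The deposited values are raw counts, 1 table per library, neither normalized nor pooled. DESeq2 1.22.2 is named in the submitters' processing notes. The 5 rows without a gene entered neither library sizes nor tests, and held 34.6% to 57.7% of reads. The members and lists were chosen with earlier results of these data known.

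Groups were taken from the labels. Counts were tested with edgeR 4.0.16 (R 4.3.3): TMM factors, filterByExpr, the quasi-likelihood test and Benjamini-Hochberg adjustment over all genes tested, at 0.05. Stage steps were fitted on the 9 libraries of a genotype, genotypes on the 6 libraries of a fraction, and the interaction on 18 libraries. The scripts were tested on simulated data. Ratios of counts were tested by exact permutation. Spermatozoa were not tested. Exon lengths and gene positions came from GENCODE vM21 on the same assembly, where *Ccna2*, *Cdk2*, *Ccna1*, *Plk1* and *Cdc25c* overlap a gene on the other strand. RefSeq promoter sequences are shown for 6 members. The sequence for *Ccna1* did not reach the bases before the GENCODE start. The planned comparison of protein sequences was not made.

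All 10 members were counted in every comparison, and stage steps are given for each in wild type. Fold changes between genotypes are given for the 3 members with the smallest p in each fraction, the interaction for the member with the smallest p, partners for the 3 largest called changes in each direction, and similar genes for the 3 highest correlations. *H2afb1*, *Piwil1*, *Sycp3*, *Sycp1* and *Hspa2* were named after their values were seen. The alternatives were the DESeq2 1.42.0 Wald test and size factors, library size only, no filter, a minimum count of 50, a fold over 2, all 18 libraries, the replicate number as a block, the sum of wild-type round replicates 2 and 3, whose counts differed by little more than sampling noise (mean chi-square 1.06 per gene, against 1.90 to 12.2 in other pairs), and each replicate left out.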

Additional observations from a re-analysis of the deposited data

How the results depend on the processing

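Of the 580 refits of the members' stage changes, 538 kept direction and side of the threshold, and none changed direction. Asking for a fold over 2 lowered the members called to 3, 1, 4 and 1 at the wild-type steps from pachytene to round and round to condensing and the same KO steps. No other setting moved these counts by over 1.5 times. Without 1 replicate they ran from 10 to 10, 8 to 9, 9 to 10 and 6 to 7. Of 14079 to 14519 genes tested, the same refits called 9160 to 9987, 5783 to 6556, 9926 to 10345 and 6563 to 7376. No member was called between genotypes or in the interactions under any setting.

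Same-numbered replicates did not deviate together in every pair, so the numbers were not read as pairs (correlations −0.25 to 0.35). With the replicate block, 10, 10, 9 and 7 members were called at the 4 steps and 0 elsewhere. Over all genes the block called 9903 and 7088 of 14011 at the wild-type steps. It called 10358 and 7450 of 13877 at the KO steps. In pairs of the same number the lowest adjusted p of the ratio tests was 0.05, so none was below the threshold. It was that of *Ccnb1* to *Ccnb2* (1.11 and −0.21), *Cdk1* to *Cdk2* (2.31 and −1.14) and *Aurkc* to *Aurkb* from round to condensing (−0.70). This paired test flips the signs of 6 differences. Each of these ratios had the smallest unadjusted p that such flips can give, so the test could not place them lower. *Ccna1* to *Ccna2* from round to condensing (−0.32) and *Aurkc* to *Aurkb* from pachytene to round (0.39) had larger values, 0.125 and 0.143.

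With 5 added to each count, *Aurkc* to *Aurkb* from pachytene to round was 0.36 (adjusted p = 0.0544). From round to condensing it was −0.92 in wild type and −0.48 in KO alone. Without 1 library, *Aurkc* to *Aurkb* ran from 0.32 to 0.48 at the first step, and *Ccna1* to *Ccna2* from −0.38 to −0.25 at the second. The causes were not tested.

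Calls over all genes between genotypes turned on single wild-type libraries, with 243 in pachytene spermatocytes without wild-type replicate 3 and 264 in round spermatids without wild-type replicate 1, against 0 and 2. Over all alternatives they ran from 0 to 243, 1 to 264 and, in condensing spermatids, 1 to 27, with 0, 61 and 26 under the block. Asking for a fold over 2 lowered all-gene calls at the 4 stage steps from 9847, 7009, 10399 and 7521 to 4762, 1188, 5082 and 1200. With library size only, the median of all genes moved to −0.20 from pachytene to round in wild type, and no member changed direction. Depth limits *Ccna2* and the spermatozoa.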
